A study of Mus musculus with 24 samples.

Results

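The immediate early response genes Fos, Fosb, Jun, Junb, Egr1, Nr4a1, Atf3, Ier2, Dusp1 and Klf4 were followed through adrenal glands and neuroblastoma tumors of transgenic mice. These 10 genes were taken by symbol from a table of 21833 protein-coding genes, and each symbol matched 1 row. All 10 passed the filter on low values, at least 1 FPKM in at least 3 of the 24 libraries. Fosb passed only through 1 TI and 2 TIM libraries and Klf4 through the 5 AGM, 1 TI and 2 TIM libraries. FPKM are fragments per kilobase of gene length, so that levels can be set side by side between genes. The deposited values are scaled to library sizes adjusted by the authors' TMM normalization, not to the reads of each library. All levels given here and the filter at 1 FPKM are on that scale.

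Immediate early genes are switched on within minutes of a stimulus, without new protein synthesis, by transcription factors that are already present and become phosphorylated, such as SRF with its ETS partners and CREB. Their mRNAs are short-lived. Fos, Fosb, Jun and Junb encode subunits of the AP-1 transcription factor, and Atf3 a related bZIP factor induced by stress. Egr1 and Klf4 are zinc finger transcription factors, Nr4a1 is an orphan nuclear receptor induced by ACTH in the adrenal cortex, and Dusp1 is a phosphatase that switches MAP kinases off. In the adrenal medulla and in sympathetic neurons, nerve input and growth factors induce such genes, and tissue removal can also do so.

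Normal adrenal glands (AG, n = 3) came from CRE - mice, and tumor-free adrenal glands (AGM, n = 5) from mice labelled MYCN +/-, CRE +. The first tumor group (TI, n = 8) were neuroblastomas driven by IGF2BP1, 1 from an IGF2BP1 +/- and 7 from IGF2BP1 +/+ mice, all CRE +. The other tumor group (TIM, n = 8) carried the label IMP1/MYCN, CRE +, where IMP1 is another name of IGF2BP1. The transgenes sat behind a stop cassette in the Rosa26 locus and were switched on by iCRE under the Dbh promoter, which is active in noradrenergic cells, so that only a fraction of the cells of a gland carried an active transgene. By the study's genotyping TIM mice lacked the wild-type Rosa26 locus and so carried 1 allele of each transgene, whereas 7 of 8 TI samples were IGF2BP1 +/+. By the study's account the MYCN mice were culled at a fixed age and tumor-bearing mice when they met termination criteria. Age and group thus cannot be told apart, and the age of the AG mice and the time between death and freezing were not given in the sources used here. All AG samples belonged to sequencing run 1, all AGM samples to run 2, and TIM held 3 of run 2 and 5 of run 3, so neither TIM vs AG nor AGM vs AG compares samples of 1 run, and group and run cannot be told apart there. TI held 6 samples of run 1, 1 of run 2 and 1 of run 3, and TIM held 0 of run 1. TIM vs TI is thus in part a comparison of runs as well. The columns of the table named the group but no sample, so no value could be compared within a run, and the libraries are named here by group and a letter (TI-a to TI-h) that only tells them apart. Nothing in the labels says that the samples of a group came from separate animals, and p-values measure the spread between these samples.

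The promoters are shown because CREB and the ATF factors bind the cAMP response element (CRE, TGACGTCA), whose core TGACG was the motif most members shared. RefSeq promoter windows on build GRCm38.p6, from 250 bases before to 50 bases after the start of the gene, matched 8 of the 10 members, all but Egr1 and Ier2. The stretches below are the 150 bases before the start on the gene's strand, Fos chr12:85473740-85473889 (plus strand), Fosb chr7:19310046-19310195 (minus strand), Junb chr8:84978749-84978898 (minus strand), Nr4a1 chr15:101266696-101266845 (plus strand), Atf3 chr1:191183334-191183483 (minus strand) and Dusp1 chr17:26508473-26508622 (minus strand). They lie upstream of exon 1, and capitals mark TGACG or its reverse complement CGTCA.
Fos: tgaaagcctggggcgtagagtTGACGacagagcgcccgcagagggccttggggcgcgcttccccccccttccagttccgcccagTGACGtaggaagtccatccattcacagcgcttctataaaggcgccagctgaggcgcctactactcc
Fosb: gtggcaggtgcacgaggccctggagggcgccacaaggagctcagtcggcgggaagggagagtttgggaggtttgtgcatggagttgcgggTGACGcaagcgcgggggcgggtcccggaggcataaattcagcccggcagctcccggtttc
Junb: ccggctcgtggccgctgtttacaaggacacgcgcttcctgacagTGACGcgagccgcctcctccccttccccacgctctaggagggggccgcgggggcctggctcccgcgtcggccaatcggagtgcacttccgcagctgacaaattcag
Nr4a1: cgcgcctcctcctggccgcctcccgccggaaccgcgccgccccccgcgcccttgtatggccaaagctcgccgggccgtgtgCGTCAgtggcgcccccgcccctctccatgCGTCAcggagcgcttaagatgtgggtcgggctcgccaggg
Atf3: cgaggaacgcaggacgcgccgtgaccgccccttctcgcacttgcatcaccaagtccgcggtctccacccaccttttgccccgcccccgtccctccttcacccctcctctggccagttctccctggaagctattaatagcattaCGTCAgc
Dusp1: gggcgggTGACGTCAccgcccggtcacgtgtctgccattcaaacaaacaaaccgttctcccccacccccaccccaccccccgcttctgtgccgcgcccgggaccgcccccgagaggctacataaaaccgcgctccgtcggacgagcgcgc

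Of these 8 windows 7 held the core TGACG on either strand, against 20.8% of all 32851 promoter windows. The core was picked among the scanned motifs by this count, so the comparison is a description and not a test. Nr4a1 held 4 copies, at -233, -213, -69 and -40, counted from the first base before the start as -1. Fos held copies at -129 and -66, Fosb at -60, Junb at -106, Atf3 at -7 and Klf4 at -232, outside the stretch of 150 bases. Dusp1 was the only member with the full CRE, at -143, where 2 copies of the core overlap on opposite strands, and 1.79% of all windows held it. Dusp1 also held a copy of the core at -191, outside the stretch of 150 bases. Jun held no copy. The AP-1 site TGACTCA (5.20% of all windows), the EGR site GCGTGGGCG (0.612%) and the CArG box bound by SRF (1.63%) were in none of the 8 windows. The E-box CACGTG was in those of Dusp1 and Klf4 (7.15% of all windows). These matches describe letters in a window and are not binding sites. Only exact letters were searched. Bases farther upstream than -250, and the promoters of Egr1 and Ier2, were not searched, so an absence holds for these 8 windows alone.

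Before the members, the libraries were checked. No library was identical to another. Outside the 126 genes above 1000 FPKM in any library, to which no member belongs, each library held 12334076 to 23683176 recovered reads, the reads after the authors' correction that the FPKM imply. With those genes, totals were 17434796 to 17893013 in AG and 12468968 to 21353172 in TI, but 116740738 to 1170004708 in AGM and 58530450 to 888626365 in TIM, so that in every AGM and TIM library the 126 genes held most of the corrected reads. The members held 5 to 23152 recovered reads per library. The cortex marker sum (10 of 10 genes found, with Cyp11a1 and Star) was 691 to 735 FPKM in the AG and 4882 to 6453 FPKM in the AGM libraries, but 0.615 to 18.1 FPKM in TI tumors and 1.28 to 13.01 FPKM in TIM tumors. The sum over 10 chromaffin and sympathoblast markers such as Th and Dbh was 141 to 203 FPKM for AG, 1478 to 2553 FPKM for AGM, 194 to 1823 FPKM for TI and 213 to 4772 FPKM for TIM. The labelled tissues were thus present by their markers, with no marker of either list at 0 in every library of a group. In bulk tissue, fewer cells of a type and less RNA per cell cannot be told apart.

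Fos, the prototype immediate early gene (ENSMUSG00000021250), had its lowest median in normal glands. Its levels were 0.0317, 0.194 and 0.0761 FPKM in the 3 AG libraries, from 8 to 48 recovered reads. The 5 AGM libraries held 4.36, 1.35, 5.75, 5.59 and 1.38 FPKM. TI ranged from 0.191 to 14.4 FPKM with a median of 1.61, and TIM from 1.01 to 46.4 with a median of 3.34. Every AGM and TIM library lay above every AG library, whereas the lowest TI library, TI-c, lay just below AG-b. By their medians the groups ordered as AG, TI, TIM and AGM, and the last 3 overlapped each other. TIM exceeded AG by 2.51 ± 0.75 (SE) on the log2(FPKM + 1) scale (limma, adjusted p = 0.00733). For AGM vs AG the difference was 1.94 ± 0.80 (adjusted p = 0.0744), and for TI vs AG 1.52 ± 0.75 (adjusted p = 0.0929).

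Fosb (ENSMUSG00000003545), a Fos paralog, was lower throughout. It was at 0.00746, 0.251 and 0.0815 FPKM in AG and at 0.425, 0.354, 0.734, 0.638 and 0.281 FPKM in AGM. TI ranged from 0.0304 to 1.24 (median 0.188) and TIM from 0.0818 to 6.71 FPKM (median 0.411). AGM lay above AG without overlap, while both tumor groups overlapped AG. None of the 5 contrasts passed the threshold for Fosb, and the largest difference was TIM vs AG with 0.74 ± 0.40 (adjusted p = 0.132).

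Jun (ENSMUSG00000052684), the main partner of Fos in AP-1, was at 11.3, 13.2 and 13.4 FPKM in AG and at 15.4, 15.0, 21.7, 12.2 and 12.6 FPKM in AGM. TI ranged from 4.96 to 30.1 FPKM (median 10.3) and TIM from 5.34 to 18.6 (median 10.2). All 4 groups overlapped, and none of the contrasts passed the threshold (adjusted p = 0.0929 for TIM vs AGM, the smallest). Jun was thus abundant in the AG libraries, in which Fos did not exceed 0.194 FPKM.

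Junb (ENSMUSG00000052837), an AP-1 subunit that can also counteract Jun, varied 6.76-fold between the normal glands. Its AG libraries held 1.54, 10.4 and 3.59 FPKM and its AGM libraries 13.7, 5.70, 20.1, 9.84 and 8.26 FPKM. TI ranged from 1.02 to 7.78 FPKM (median 2.25) and TIM from 2.05 to 9.81 (median 4.08). The groups overlapped, and no TI or TIM library exceeded the AGM median of 9.84 FPKM. Junb was lower in TIM than in AGM by -1.09 ± 0.40 (limma, adjusted p = 0.0208). It was 1.18 ± 0.51 higher in AGM than in AG without passing the threshold (adjusted p = 0.0865).

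Atf3 (ENSMUSG00000026628) was the only member whose libraries of both tumor groups all lay above all normal glands. The AG libraries held 0.337, 0.300 and 0.157 FPKM, with 36 to 78 recovered reads, and the AGM libraries 0.481, 0.379, 0.538, 0.574 and 0.643 FPKM. TI ranged from 0.642 to 6.09 FPKM (median 1.45) and TIM from 0.407 to 4.85 (median 1.08). Against AGM, the lowest TI library (TI-e, 0.642 FPKM) lay at the level of the highest AGM library (0.643 FPKM), and 2 TIM libraries fell into the AGM range. Atf3 rose in TI vs AG by 1.12 ± 0.37 (limma, adjusted p = 0.0135), while TIM vs AG missed the threshold with 0.81 ± 0.37 (adjusted p = 0.0725). The call in TI was lost without AG-c and with limma-voom on recovered reads, where 0 members passed in TI vs AG.

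Egr1 (ENSMUSG00000038418), which is induced through ERK and SRF, passed in the same contrast as Fos. Its levels were 0.380, 1.33 and 1.04 FPKM in AG and 5.99, 2.12, 14.0, 7.76 and 3.51 FPKM in AGM. TI ranged from 1.07 to 10.6 FPKM (median 2.90) and TIM from 1.81 to 41.9 (median 8.76). TIM and AGM did not overlap AG, and TI overlapped AG only through TI-c. The highest TIM libraries were TIM-b with 41.9 and TIM-d with 30.0 FPKM. Egr1 exceeded AG in TIM by 2.46 ± 0.69 (limma, adjusted p = 0.00485). The difference of TIM from TI, 1.29 ± 0.51, was the smallest adjusted p of that contrast (0.0711).

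Nr4a1 (ENSMUSG00000023034) was the most abundant member in AGM and the one that fell furthest from there to the TIM tumors. Its AG libraries held 1.68, 21.5 and 14.7 FPKM, and its AGM libraries 31.9, 24.3, 35.2, 47.0 and 28.2 FPKM. TI ranged from 0.527 to 8.01 FPKM (median 2.47) and TIM from 1.41 to 49.4 (median 6.29). Every AGM library lay above every AG and TI library, and TIM overlapped AGM only through TIM-d. Nr4a1 was lower in TIM than in AGM by -2.12 ± 0.66 (limma, adjusted p = 0.0078). The TI and TIM differences from AG were -1.40 ± 0.78 and -0.35 ± 0.78 (adjusted p = 0.142 and 0.743).

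Klf4 (ENSMUSG00000003032) had its highest level in AGM and was low elsewhere. AG held 0.269, 0.651 and 0.417 FPKM and AGM 1.27, 1.41, 1.05, 1.04 and 1.16 FPKM. TI ranged from 0.0262 to 1.12 FPKM (median 0.281), with 8 recovered reads in TI-c, and TIM from 0.121 to 1.18 (median 0.540). AGM lay above AG without overlap and overlapped both tumor groups only at their highest libraries. Klf4 was lower in TIM than in AGM by -0.52 ± 0.18 (limma, adjusted p = 0.0141). AGM vs AG gave 0.60 ± 0.23 (adjusted p = 0.0504).

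Ier2 (ENSMUSG00000053560), a small nuclear protein of the early response, passed in both contrasts of AGM. The AG libraries held 2.43, 4.28 and 3.05 FPKM and the AGM libraries 5.33, 4.75, 7.11, 6.45 and 6.25 FPKM. TI ranged from 1.75 to 6.0 FPKM (median 2.89) and TIM from 1.97 to 6.53 (median 3.33). AGM lay above AG without overlap, and in each tumor group only the library d exceeded the lowest AGM library. Ier2 rose in AGM vs AG by 0.73 ± 0.26 (limma, adjusted p = 0.0416). It was lower in TIM than in AGM by -0.70 ± 0.21 (adjusted p = 0.0053).

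Dusp1 (ENSMUSG00000024190), the phosphatase of the set, was at 1.31, 2.66 and 2.11 FPKM in AG and at 4.79, 3.27, 4.94, 3.69 and 4.11 FPKM in AGM. TI ranged from 1.60 to 9.76 FPKM (median 3.53) and TIM from 2.36 to 7.24 (median 3.83). AGM lay above AG, and each tumor group overlapped both gland groups. Dusp1 rose in TIM vs AG by 0.77 ± 0.30 (limma, adjusted p = 0.0367). The other differences from AG were of like size, 0.78 ± 0.33 in AGM and 0.62 ± 0.30 in TI, and missed the threshold (adjusted p = 0.0754 and 0.089).

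**Figure D1:**
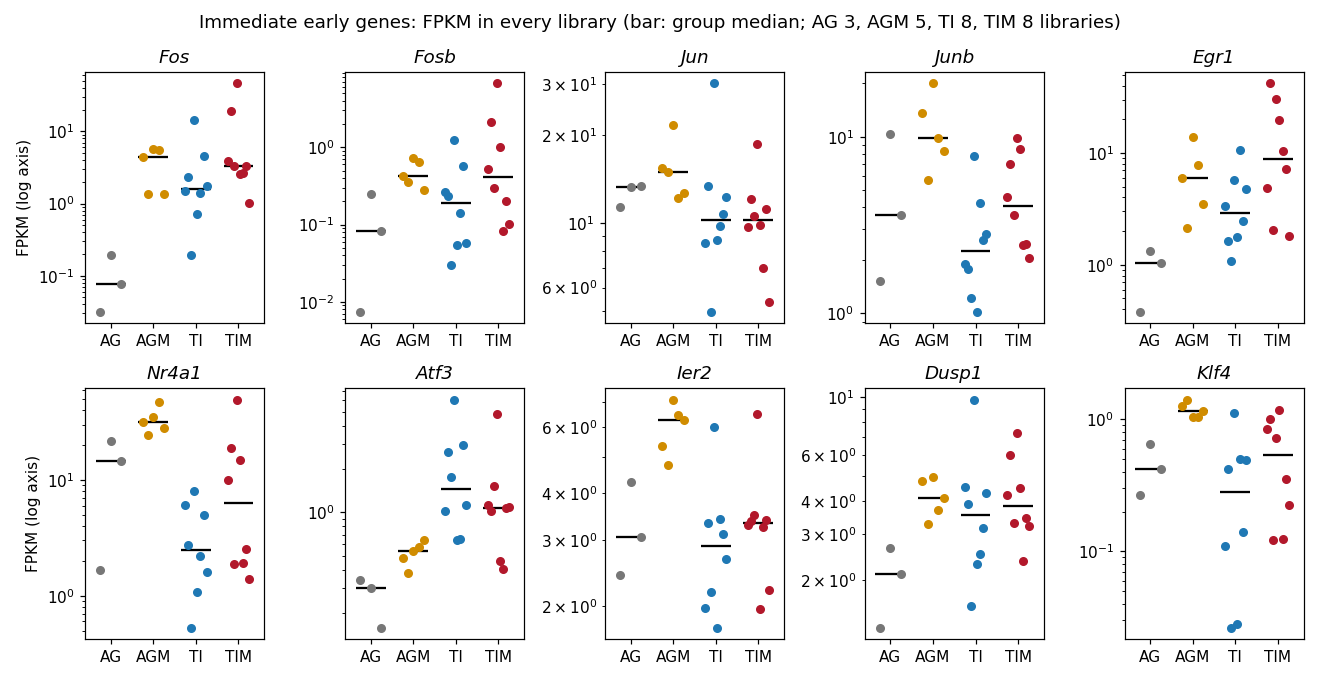
FPKM of each gene on a log axis in every library of AG (n = 3), AGM (n = 5), TI (n = 8) and TIM (n = 8), with the group median as a bar. Fos in AG stays at 0.194 FPKM or below while the other groups reach 5.75, 14.4 and 46.4, and the ratio of the highest to the lowest library is wider in each tumor group than in AGM for every gene.

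MYCN-transgenic glands were compared with normal glands to see whether the acute response genes differed in glands without a tumor. In AGM vs AG, 1 of 10 members passed the threshold, higher in AGM (Ier2), while 14.6% of the 10171 tested genes were called higher. All 10 differences were positive, with a median of 0.76 against 0.00 (-0.0023) over all tested genes, and 7 had an unadjusted p below 0.05. In 8 of 10 members (all but Jun and Junb), every AGM library lay above every AG library, against 29.4% of tested genes. With only the libraries of AG and AGM setting the spread, 8 members passed, again all but Jun and Junb, while 29.2% of tested genes were called higher. The call of Ier2 was lost without AG-a, AG-c, AGM-a, AGM-c, AGM-d or AGM-e, each of which left 0 calls, and without AG-b or AGM-b there were 2. Without TI-d and TIM-d, which enter the shared spread, 4 members passed (Fos, Ier2, Dusp1 and Klf4), against 14.6% of tested genes called higher.

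The scale of the values moves these counts. When FPKM were recomputed per recovered read outside the extreme genes, the median log2 difference of all tested genes in AGM vs AG moved from 0.00 (-0.0023) to -0.41, and the share of calls that were higher in AGM from 51.2% to 21.2%. On that scale Fos alone passed, against 9.58% of tested genes called higher, 3 members (Fos, Egr1 and Klf4) did not overlap against 15.6% of tested genes, and Jun turned to -0.22. The difference of Jun, 0.24 as deposited, was smaller than this shift. Recomputed FPKM are also higher than deposited FPKM, so the added 1 weighs less on low genes. For Fos in AGM vs AG the difference was 1.94 as deposited and 3.23 recomputed. As deposited with a pseudocount of 0.1 it was 4.06. The parts of library size and of the added 1 in the changed calls were not tested. Beside these differences, the AGM libraries held higher sums of cortex and chromaffin markers than AG (9 of 10 and 6 of 10 markers passed, all higher). Adipocyte markers passed as higher in 4 of 6 and as lower in 0 (median difference 1.51), with sums of 70.1 to 661 FPKM in AG and 291 to 1164 FPKM in AGM. The list was split, as the median of Cfd was 358 FPKM in AG and 131 in AGM, and that of Adipoq 79.7 and 45.5. The part of these cells in the members' levels was not tested. Endothelial sums overlapped, with 35.3 to 39.5 FPKM in AG and 35.3 to 49.5 in AGM.

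The tumors were compared with normal glands to ask which members differed in tumors, with run, age and tumor site as limits. By the study's account, the IGF2BP1 tumors lay mostly in the lower abdomen, and only 1 came from the adrenal gland. TIM tumors arose in adrenal glands, in the abdomen and along the spine. The columns name no site, so tumor and site cannot be told apart. In TI vs AG, 1 of 10 members was called higher (Atf3) and 0 lower, while 24.6% of tested genes were called higher. Of the members, 5 had positive and 5 negative differences, with a median of 0.05. In TIM vs AG, 3 of 10 were called higher (Fos, Egr1 and Dusp1) and 0 lower, against 22.5% of tested genes, and the median difference was 0.42. Without overlap above AG lay 1 member in TI (Atf3), against 23.8% of tested genes, and 3 in TIM (Fos, Egr1 and Atf3), against 17.8%. The Fos and Egr1 calls in TIM vs AG held with each single library left out, whereas limma-voom called Egr1 alone. The Dusp1 call was lost without AG-a, AG-c, TIM-b or TIM-d, without a filter on low values (adjusted p = 0.0509), with limma-voom (0.0679) and on the scale of FPKM recomputed outside the extreme genes (0.0544). On that scale Fos, Egr1 and Atf3 passed (adjusted p = 0.0234 for Atf3), against 20.3% of tested genes called higher. Without AG-a, Nr4a1 passed in TI vs AG as lower, and without TI-c Dusp1 passed as higher. These contrasts and AGM vs AG share the 3 AG libraries.

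The tumor models were compared with each other and TIM with AGM, to see how the members differed between models. TIM differs from TI by MYCN, in part by tumor site and, in 7 of 8 TI samples, by the number of IGF2BP1 alleles. The 2 groups also differ in sequencing run and in age at culling, and all of these cannot be told apart. AGM held no tumor and only samples of run 2. Transgene, tumor and, in part, run therefore cannot be told apart in TIM vs AGM. In TIM vs TI, 0 of 10 members passed (limma), 1 had an unadjusted p below 0.05 (Egr1), and 22.9% of tested genes were called in either direction. The other tool, limma-voom, also gave 0. Egr1 passed without TI-f, TIM-c or TIM-h. The approximate 95% confidence interval of the log2 difference was -0.09 to 2.07 for Fos, -0.05 to 1.32 for Junb and -0.09 to 2.18 for Nr4a1, so differences within these bounds were not resolved. In TIM vs AGM, 4 of 10 members were lower (Nr4a1, Junb, Ier2 and Klf4) and 0 higher, against 33.4% of tested genes called lower. Beside them, cortex markers were lower in 10 of 10, endothelial markers in 7 of 7 (median -0.97) and adipocyte markers in 6 of 6 (median -5.05), and the part of these cells in the members' differences was not tested. With limma-voom Nr4a1 alone passed. The Junb call was lost without AGM-a or AGM-c, and Jun passed as lower without TIM-d. On the recomputed scale, on which the median of all genes moved from 0.03 to 0.31 and the share of calls higher in TIM from 48.8% to 61.7%, Nr4a1 remained lower, Atf3 passed as higher and Dusp1 turned from -0.01 to 0.28. For TIM vs TI the same scale moved the share of higher calls from 43.6% to 30.3%.

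**Figure D2:**
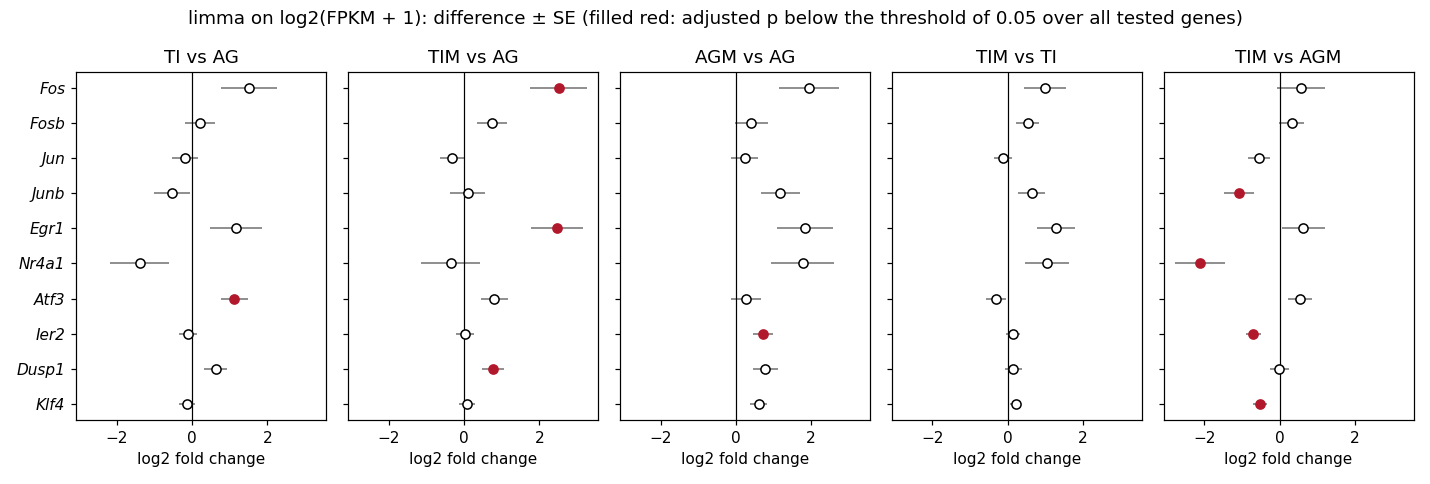
Differences in log2(FPKM + 1) between groups (x axis, log2 units, ± SE from limma) for each gene and contrast, with filled red points for an adjusted p below 0.05. All 10 points of AGM vs AG lie right of 0, and the 4 red points of TIM vs AGM lie left of 0 with Nr4a1 furthest at -2.12.

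The tumor models' difference was set against that of the glands by an interaction term, TIM vs TI minus AGM vs AG. In it, MYCN, the number of IGF2BP1 alleles and sequencing run again cannot be told apart. None of the 10 members passed (0 calls, 0 with an unadjusted p below 0.05, smallest adjusted p = 0.274 for Ier2), and 10% of tested genes were called. The difference was negative in 9 members, with a median of -0.57.

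The spread between libraries of a group was large for these genes. In TI the highest library exceeded the lowest by 3.43-fold for Ier2 to 75.6-fold for Fos, and in TIM by 3.07-fold for Dusp1 to 82.0-fold for Fosb. The SD of log2(FPKM + 1) was above that of the median tested gene for all 10 members in AG, TI and TIM and for 8 in AGM. In TI, Fos (SD 1.13) exceeded 99.4% of tested genes, Nr4a1 (0.90) 98.3% and Egr1 (0.83) 97.9%, where the median gene had 0.24. In TIM, Nr4a1 (1.63) exceeded 98.7%, Fos (1.51) 98.4% and Egr1 (1.47) 98.2%, against a median of 0.31. In AGM, Atf3 and Klf4 were the even members, exceeding 28.5% and 32.6% of tested genes. In AG, Nr4a1 (1.64) exceeded 99.9% and Junb (1.09) 99.8% of tested genes, from 3 libraries.

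**Figure D3:**
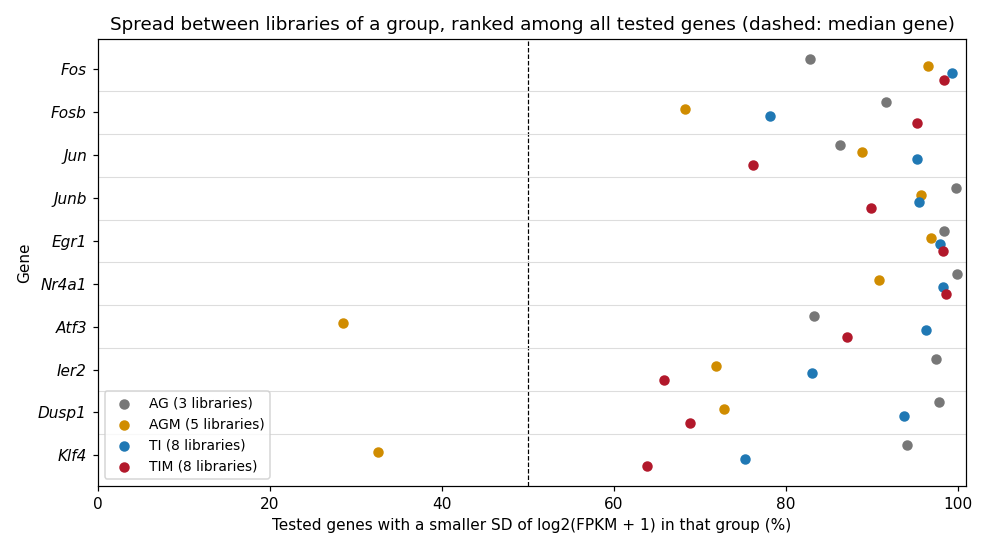
Share of tested genes (x axis, %) with a smaller SD of log2(FPKM + 1) between the libraries of a group than the named gene, for AG, AGM, TI and TIM. All points lie right of the dashed median gene except Atf3 (28.5%) and Klf4 (32.6%) in AGM.

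The members were high or low together in the same libraries. TI-d was the highest TI library in 9 of 10 members, all but Egr1, with a mean of 1.19 log2 units above its group, and TIM-d was the highest TIM library in 8 of 10, with a mean of 1.42. The median of all tested genes in these libraries was 0.0009 and -0.0167 log2 units from the group mean. TIM-b was among the highest 2 in 7 members (mean 0.74). At the low end, TI-c was lowest in 7 members (mean -0.71) and TIM-h in 5 (mean -0.86). In glands, AG-a was lowest in 9 of 10 members and AG-b highest in 8, while AGM-c was highest in 7 and AGM-b lowest in 7.

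**Figure D4:**
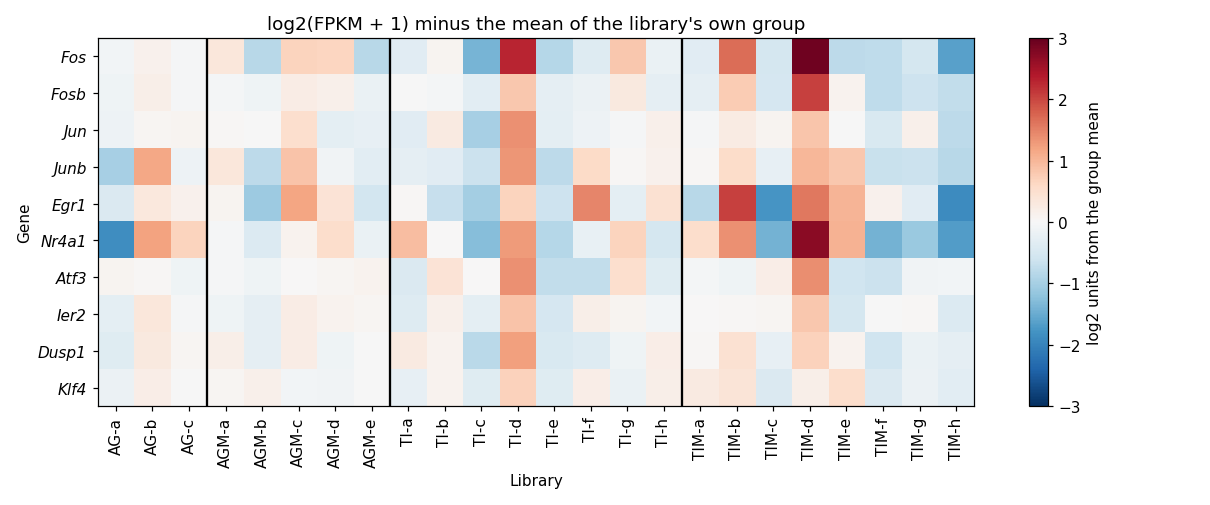
log2(FPKM + 1) of each gene minus the mean of the library's own group (color, log2 units) for the 24 libraries, with lines between AG, AGM, TI and TIM. TI-d and TIM-d are above their group mean in all 10 genes, and TIM-h is below it in all 10.

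Cell type markers moved with some of these libraries. The chromaffin and sympathoblast sum was 2050 FPKM in TIM-d and 3589 FPKM in TIM-b against a TIM median of 883, and highest in TIM-e (4772). In TI-d this sum was 542 FPKM against a TI median of 497. TI-f, the highest TI library for Egr1, held the highest such sum of TI, 1823 FPKM. TI-d held the highest endothelial sum of TI, 70.3 FPKM against a group median of 10.2, and the highest fibroblast sum, 87.4 against 16.8. TIM-d held an endothelial sum of 18.8 FPKM against a median of 13.1 and the lowest macrophage and leukocyte sum of TIM, 45.6 against 89.0. The fibroblast sum of TIM-d, 29.7 FPKM, was below the TIM median of 31.0. The highest endothelial sum of TIM was that of TIM-e, 26.0 FPKM, where the members had a mean of 0.16 log2 units above the group. The part of these cells in the members' levels was not tested. Without TI-d and TIM-d, Atf3 passed in TI vs AG (24.3% of tested genes called higher), and Fos, Egr1, Dusp1 and, newly, Atf3 in TIM vs AG (22.3%). In TIM vs TI 0 members passed (20.9% called in either direction), and in TIM vs AGM Nr4a1, Junb, Ier2, Klf4 and, newly, Jun were lower (33% of tested genes called lower).

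Across the 8 libraries of a tumor group, Fos correlated positively with all 9 other members. In TI, Pearson's r was between 0.386 for Egr1 and 0.958 for Fosb (median 0.832), and in TIM between 0.455 for Klf4 and 0.939 for Fosb (median 0.823). By exact two-sided permutation over 40320 pairings and with adjustment over the 18 relations, 8 passed in TI (all but Egr1) and 7 in TIM (all but Atf3 and Klf4). Spearman's rho had medians of 0.762 and 0.690, and 0 of 18 passed after adjustment. Fosb in TI had r = 0.958 (exact permutation p = 0.000942, adjusted p = 0.0156) and rho = 0.881 (exact permutation p = 0.00724, adjusted p = 0.0945). In TIM, Jun had r = 0.868 (exact permutation p = 0.00365, adjusted p = 0.0156) and rho = 0.810 (exact permutation p = 0.0218, adjusted p = 0.0945).

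These correlations rest in large part on the extreme libraries. Without the 2 libraries farthest from the median of Fos, TI-d and TI-c, the median r in TI was 0.496 and the range -0.166 for Egr1 to 0.892 for Atf3. Without TIM-d and TIM-b, the median in TIM was 0.335 and the range 0.110 for Atf3 to 0.867 for Jun. Fosb kept 0.879 in TI but 0.335 in TIM, and Jun 0.496 in TI but 0.867 in TIM. For comparison, the median r of all tested genes with Fos was -0.03 in TI and 0.01 in TIM, and 2.87% and 0.581% of genes reached the members' median. Among all pairs of members, 44 of 45 were positive in each tumor group, with median r of 0.781 and 0.749. The points of a correlation share their library and its depth.

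**Figure D5:**
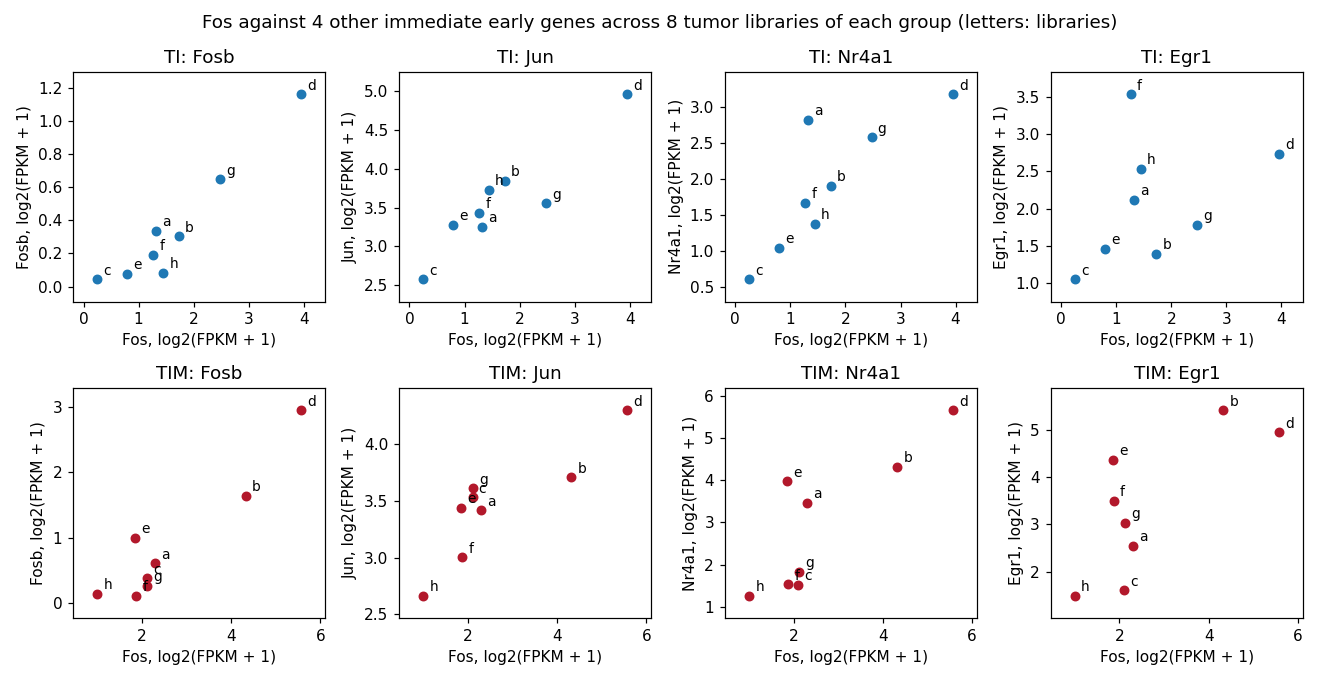
log2(FPKM + 1) of Fos (x axis) against Fosb, Jun, Nr4a1 and Egr1 (y axes) in the 8 TI and the 8 TIM libraries, with the letter of each library. Library d is the rightmost point in every panel, and in TI Egr1 is highest in library f, away from Fos (r = 0.386).

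To find the genes most like Fos, each gene was centred on its group means and correlated with Fos over the 24 libraries. Fosb was the most similar of 10170 genes (r = 0.894). Jun was at rank 4, Ier2 at 7, Dusp1 at 8, Nr4a1 at 12, Atf3 at 22, Junb at 42, Egr1 at 61 and Klf4 at 402. The 5 most similar genes outside the members were Paf1 (r = 0.835), a subunit of a transcription elongation complex, the AP-1 gene Fosl2 (0.830), the ERK phosphatase gene Dusp5 (0.803), Bex2 (0.790) and Gosr2 (0.782), a SNARE of the Golgi. As correlations over libraries that share their high members, these values are a description.

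Other early response genes, a list of 30 of which 23 were tested, did not move as a block. In AGM vs AG, 6 were higher and 1 lower, with a median difference of 0.55, while 28.6% of all tested genes were called in either direction. Ier3, an early survival gene, rose by 1.74 ± 0.35 from 0.444 ± 0.059 (SD) to 3.90 ± 0.92 FPKM (adjusted p = 0.000784). Zfp36, which speeds the decay of AU-rich mRNAs, rose by 1.41 ± 0.30 (adjusted p = 0.0012). Fosl2 rose by 1.47 ± 0.42 (adjusted p = 0.0119), a call lost on the recomputed scale (adjusted p = 0.152) and with limma-voom (0.202). In TI vs AG, 4 were higher and 7 lower, against 52.4% of all tested genes called in either direction. In TIM vs AG 7 were higher and 7 lower, against 51.0%. Klf2 fell in both (-1.83 ± 0.37 in TI and -1.90 ± 0.37 in TIM). Also among the largest differences were Gadd45b (-1.76 ± 0.26) and Nr4a3 (-1.68 ± 0.22), the paralog of Nr4a1, for TI, and Myc (-1.95 ± 0.19) for TIM. The means of these genes were lower than in AG in both tumor groups. In AG, TI and TIM, Gadd45b was at 5.69, 0.779 and 0.740 FPKM, Nr4a3 at 2.83, 0.150 and 0.293, and Myc at 4.48, 0.947 and 0.443. In TIM vs TI, 4 were higher and 2 lower, among them Dusp5 (0.96 ± 0.20, higher in TIM) and Ier3 (0.84 ± 0.24). In TIM vs AGM, 2 were higher and 11 lower, with Fosl2 (-2.62 ± 0.33) and Gadd45b (-2.31 ± 0.22) among those lower. Of all tested genes, 22.9% were called in either direction in TIM vs TI and 65.3% in TIM vs AGM. On the recomputed scale the counts in AGM vs AG were 3 and 2, and in TIM vs AGM 5 and 8. On that scale 45.3% and 68.2% of all tested genes were called.

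Egr4, a neuronal paralog of Egr1, stood apart in this list. It was listed at 0 in all AG libraries, at 0 to 5.19 FPKM in AGM and at 0 to 7.30 FPKM in TI, while TIM ranged from 13.6 to 635 FPKM. It passed as higher in TIM in all 3 contrasts of that group. With limma-voom it passed against TI (adjusted p = 0.000918) and AGM (0.00211), and not against AG (0.208). The recovered reads used there also follow the authors' batch correction. Other genes were near 0 in TI and higher in TIM, whereas Egr4 had a mean of 3.04 FPKM in TI. Mean log2(FPKM + 1) in TI and TIM was 0.0030 and 1.64 for Adra1b, and 0.0016 and 1.07 for Adrb3. TI was mostly of run 1, AGM of run 2 and TIM of runs 2 and 3. The part of run and batch correction in the Egr4 values was not tested.

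Upstream factors of the members (ERK, SRF and CREB pathways, 21 of 23 tested) were also followed. In TI vs AG, 1 was higher and 5 lower, while 27.7% of all tested genes were lower, and in TIM vs AG 1 was higher and 9 lower, against 28.5%. In AGM vs AG 0 were higher and 2 lower, in TIM vs TI 2 and 2, and in TIM vs AGM 3 and 6. In this order, 28.6%, 22.9% and 65.3% of all tested genes were called in either direction. The RSK kinase genes Rps6ka1 (-0.72 ± 0.12 in TI and -0.75 ± 0.12 in TIM) and Rps6ka3 (-0.64 ± 0.11 in TI and -0.77 ± 0.11 in TIM) fell in both tumor groups. The p38 gene Mapk14 was lower in TIM than in AG (-0.78 ± 0.12) and than in TI (-0.53 ± 0.09). On the recomputed scale, 0 were higher and 10 lower in AGM vs AG, and 5 were higher and 3 lower in TIM vs AGM. On that scale 45.3% and 68.2% of all tested genes were called in either direction.

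Feedback inhibitors of ERK signalling (9 tested) include genes that are induced by the pathway they damp. Spred1 fell in all 3 contrasts with AG (-1.57 ± 0.12 in TI, -1.62 ± 0.12 in TIM and -0.94 ± 0.13 in AGM). The ERK phosphatase gene Dusp6 fell in TI (-1.49 ± 0.28) and TIM (-0.96 ± 0.28) and rose in AGM (0.89 ± 0.30, adjusted p = 0.0308, and 0.330 on the recomputed scale). Dusp4 rose in TIM against AG (1.23 ± 0.32), TI (1.1 ± 0.23) and AGM (0.63 ± 0.27, a call lost without TI-d and TIM-d, adjusted p = 0.0907). Counts of higher and lower genes were 0 and 3 in TI vs AG, 1 and 2 in TIM vs AG, 2 and 1 in AGM vs AG, 2 and 0 in TIM vs TI, and 1 and 3 in TIM vs AGM. In this order, 52.4%, 51.0%, 28.6%, 22.9% and 65.3% of all tested genes were called in either direction.

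Heat shock genes, which respond to tissue handling and protein stress and of which 12 were tested, are given for comparison. In TI vs AG 2 were higher and 2 lower, in TIM vs AG 1 and 3, in AGM vs AG 1 and 3, in TIM vs TI 1 and 1, and in TIM vs AGM 3 and 5. In this order, 52.4%, 51.0%, 28.6%, 22.9% and 65.3% of all tested genes were called in either direction. The mitochondrial chaperone genes Hspd1 (-2.41 ± 0.30 in TI, -2.11 ± 0.30 in TIM and -0.998 ± 0.323 in AGM) and Hspe1 (-2.04 ± 0.27 in TI and -1.14 ± 0.27 in TIM) were among the lower ones. Inducible Hspa1b, at 3.70 ± 0.88 (SD) FPKM in AG, fell to 0.716 ± 0.936 in TIM. The co-chaperone gene Bag3 rose in AGM by 2.43 ± 0.66 (5.14 ± 0.47 to 32.2 ± 2.8 FPKM, SD), a call lost with limma-voom (adjusted p = 0.0545). Hspa1b has a near-identical copy, Hspa1a, and its reads may be split between them.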

How the data were processed

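Poly(A)-enriched, strand-specific RNA-seq of 24 mouse samples was used. The authors aligned reads with HISAT2 2.1.0 to mm39, corrected the data for a batch effect with ComBat-seq and normalized by TMM in edgeR 3.40. The submitters' processing notes also name cutadapt 2.8, SAMtools 1.10 and featureCounts 2.0.0, without their roles. The deposited values are FPKM on that TMM scale. The authors' columns of log2 fold changes, p-values and FDR were not used. The 10 members and the gene lists were chosen with earlier results of these data known.

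Multiplied by gene length, 100.0% of values per library were whole multiples of 1 step (within 0.05), which gave reads after the authors' correction (recovered reads). Read numbers speak to counting error only. The confidence intervals of differences were computed from the SE of limma with the normal distribution, and are narrower than those of limma's t statistic. The design foresaw a count test if the table held counts. As it held FPKM, log2(FPKM + 1) of the 10171 genes that reached 1 FPKM in 3 or more libraries was fitted with limma 3.58.1 (R 4.3.3; lmFit, eBayes with trend), 4 groups sharing the spread and Benjamini-Hochberg adjustment over all tested genes (threshold 0.05). This scale understates changes of low genes. Scripts were tested on simulated data. Correlations used exact permutation (Python 3.11.15, scipy 1.17.1). Beyond the members, named genes were at most 3 per list and contrast with the largest difference among those passing, and the 5 genes most similar to Fos. Alternatives were a pseudocount of 0.1, other filters on low values, the spread of 2 groups, FPKM recomputed per recovered reads outside the 126 genes above 1000 FPKM, limma-voom on recovered reads, and leaving out libraries. Leaving out TI-d and TIM-d, and the overlap on the recomputed scale, were added after seeing the data.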

Additional observations from a re-analysis of the deposited data

Results flagged for a closer look

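In TIM, on the log2(FPKM + 1) scale, Dixon's gap of the highest library was above its 95% critical value of 0.526 for 8 samples in 2 members. Atf3 in TIM-d, at 4.85 FPKM, had a gap of 0.586 of the group's range, and Ier2 in TIM-d, at 6.53 FPKM, had a gap of 0.555. In total, 30 groups of values were tested, and chance flags about 1 in 20.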

How the results depend on the processing

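No paired analysis was possible because the columns carry no replicate numbers. Of the differences of single members, 276 of the values under the alternatives that keep all libraries or leave out TI-d and TIM-d kept direction and side of the threshold, 20 newly passed, 14 no longer passed and 10 turned sign. With single libraries left out, 551 stayed, 10 newly passed, 13 no longer passed and 16 turned sign. Where a cause is not given, the cause was not tested.

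The number of members that passed in TI vs AG (1) was 2 with a pseudocount of 0.1 and on the recomputed scale, and 0 with limma-voom. In TIM vs AG (3) it was 1 with limma-voom, and on the recomputed scale Atf3 replaced Dusp1. In AGM vs AG (1) it was 3 with a pseudocount of 0.1, 0 without a filter and with limma-voom, 8 with the spread of the 2 groups and 4 without TI-d and TIM-d. In TIM vs AGM (4) it was 2 on the recomputed scale and 1 with limma-voom. A minimum of 1 FPKM in every library left 4 members to be fitted (Jun, Junb, Ier2 and Dusp1), so the others could not pass. Of these 4, Dusp1 passed in TIM vs AG, Ier2 in AGM vs AG, and Junb and Ier2 in TIM vs AGM. These were the same calls as in the main fit for these members, and 0 passed in TI vs AG. Without single libraries the numbers ranged from 0 to 2 in TI vs AG, from 2 to 4 in TIM vs AG, from 0 to 2 in AGM vs AG, from 0 to 1 in TIM vs TI and from 3 to 5 in TIM vs AGM. The members without overlap in AGM vs AG were 8, and 3 on the recomputed scale. The median r with Fos fell to 0.496 in TI and 0.335 in TIM without the 2 farthest libraries.

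On the recomputed scale and with limma-voom, in this order, Jun in AGM vs AG was at -0.22 and -0.22, Ier2 in TIM vs AG at -0.11 and -0.10, Klf4 in TIM vs AG at -0.027 and -0.064, and Dusp1 in TIM vs AGM at 0.28 and 0.31. Without TI-d and TIM-d, Junb and Ier2 in TIM vs AG were at -0.045 and -0.084. With single libraries left out, Junb ranged from -1.04 to 0.040 in TI vs AG and from -0.41 to 0.68 in TIM vs AG, Ier2 from -0.25 to 0.061 in TI vs AG and from -0.11 to 0.20 in TIM vs AG, Nr4a1 from -1.28 to 0.25 and Klf4 from -0.0059 to 0.18 in TIM vs AG, Jun from -0.26 to 0.077 in TIM vs TI, and Dusp1 from -0.11 to 0.074 in TIM vs AGM. Without AG-b, Junb in TI vs AG turned from -0.54 and Nr4a1 in TIM vs AG from -0.35 to the positive ends of these ranges. Depth limits Fos, Fosb and Klf4 most, with 5 to 8 recovered reads in their lowest libraries.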
